A study of Homo sapiens with 5 samples.

Results

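The NEK kinases were examined in RPE1 cells treated with doxorubicin. The rule for this set took the rows of the count table that carried 9 gene symbols, NEK1, NEK2, NEK3, NEK4, NEK6, NEK7, NEK8, NEK9 and NEK11, and all 9 were found among 26485 genes. NEK2 was the reason for the choice, since its fall after doxorubicin had rank 5 by size among the 14187 genes tested, so its change is a description here and was not tested. The 8 paralogs were taken for their family name, and their changes were tested. The other two members of the human family, NEK5 and NEK10, lay outside the rule. NEK5 had between 0 and 5 counts per library and was not tested, and NEK10 had between 52 and 90.

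RPE1 is an established human line of retinal pigment epithelial cells, wild type by its label. After 18 h, 2 groups were compared, namely 2 libraries of cells given the solvent DMSO, and 3 libraries of cells given doxorubicin, of which 2 received 0.2 μM and 1 received 0.34 μM. These doses are those of the sample labels, while the treatment text of the same labels states far higher ones. The libraries held between 23773061 and 36725345 counts on genes. Of 9 markers of the retinal pigment epithelium, MITF (between 29.1 and 56.7 CPM, counts relative to the library size) and OTX2 (between 23.5 and 29.4 CPM) were expressed, while the other 7, among them RPE65, RLBP1, TYR and TYRP1, reached at most 3.91 CPM in any library. The epithelial keratin KRT8 lay between 345.5 and 661 CPM and the mesenchymal filament VIM between 4711 and 5805 CPM. KRT8 was higher in all doxorubicin libraries (log2 fold change 0.87, edgeR adjusted p of 0.0133, not past the threshold of 0.01). Markers of other cell types were low. The leukocyte gene PTPRC lay at 0.191 and 0.274 CPM in DMSO and at 0.967, 2.20 and 1.98 CPM in doxorubicin (log2 fold change 2.86, edgeR adjusted p of 0.0212), whose part in the results was not tested. PECAM1 was at most at 13 counts, and EPCAM and CDH1 were at most at 1 and 4 counts.

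NEK proteins are serine/threonine kinases named after NIMA, a mitotic kinase of the mould Aspergillus. In human cells NEK2 loosens the linker that holds the centrosomes together before mitosis, and NEK9, once activated by PLK1, switches on NEK6 and NEK7, which help the spindle to form. NEK1, NEK4 and NEK8 are linked to the primary cilium and to the DNA damage response, NEK11 to the G2/M checkpoint, and NEK3 to microtubules and cell migration. NEK7 also takes part in the activation of the NLRP3 inflammasome. The NEK2 gene is known as a target of the E2F family, whose repressor members hold cell cycle genes down in arrested cells.

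After doxorubicin NEK2 mRNA was at a few percent of its DMSO level, while the paralogs had log2 fold changes between -1.44 (NEK3) and 1.08 (NEK8). Of the 8 paralogs, 0 passed edgeR's quasi-likelihood test at the study's threshold of 0.01 for the adjusted p, against 4.02% of all genes tested, while DESeq2 called 1 (NEK3) and limma voom 0. In edgeR 4 paralogs had an unadjusted p under 0.05, against 30.8% of all genes. At an adjusted p of 0.05 in the same test 1 paralog, NEK3, passed, against 13.6% of all genes. In NEK1, NEK3 and NEK4 all doxorubicin libraries lay below both DMSO libraries, in NEK6, NEK8 and NEK9 they all lay above, and in NEK7 and NEK11 the groups overlapped. Such a separation of the groups was found in 47.7% of all genes tested, 23.4% with lower and 24.3% with higher levels in doxorubicin, against which the 6 of 8 paralogs are to be read. The median log2 fold change of the paralogs was 0.029, close to the 0.013 of all genes tested.

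**Figure D1:**
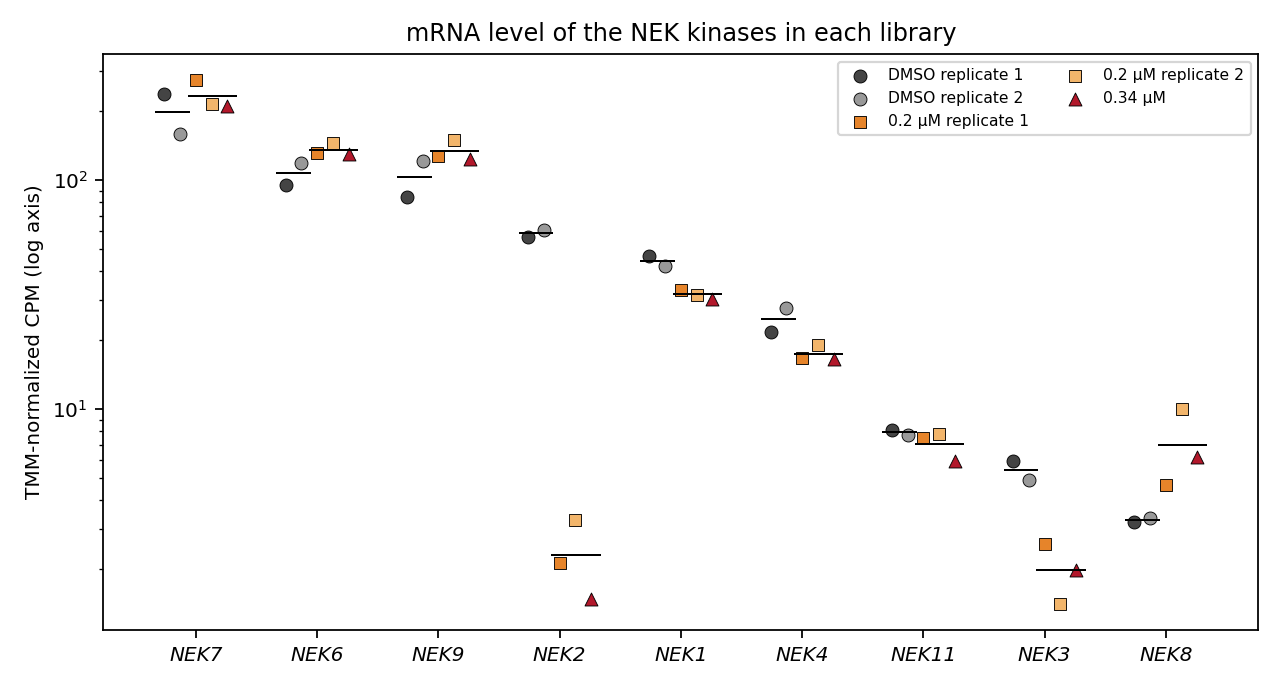
Level of each NEK kinase in each library, in CPM (counts relative to the library size after TMM normalization) on a log axis. Points are libraries, and short lines are the means of the 2 DMSO and the 3 doxorubicin libraries. NEK2 is the only member whose groups lie far apart, at 56.6 and 60.8 CPM in DMSO and between 1.49 and 3.28 CPM in doxorubicin.

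NEK2 (chromosome 1 of GRCh38, 211658256 to 211675621) had 1483 and 1552 counts in the DMSO libraries, 55 and 79 counts at 0.2 μM and 54 counts in the deeper library at 0.34 μM. After normalization these were 56.6 and 60.8 CPM in DMSO, 2.13 and 3.28 CPM at 0.2 μM and 1.49 CPM at 0.34 μM. The lowest DMSO library thus lay far above the highest doxorubicin library, and the 0.34 μM library was the lowest of all. The mean went from 58.7 ± 2.98 CPM (SD, n = 2) to 2.30 ± 0.911 CPM (SD, n = 3), which was 25.5-fold lower. On the log2 scale the change was -4.69 ± 0.32 (SE, a description, since NEK2 was chosen for its fall). Leaving out single libraries moved it to between -5.03 and -4.44. From bulk RNA alone, a smaller number of cells in the stage that uses the gene and less of its mRNA per cell cannot be told apart. By flow cytometry, the study reports that the share of cells in G2/M rose significantly after doxorubicin. How that share relates to the level of NEK2 was not tested. The counts of NEK2 could include reads of FDPSP8, a pseudogene inside its span, and RefSeq lists 4 processed copies of NEK2 itself, none of which has a row in the count table, while no source used here states how reads with several mapping places were treated.

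The promoter of NEK2 is shown because this gene carried the large change of the family. These are the 250 bases before its start in RefSeq (GRCh38.p14, minus strand, chr1:211675622-211675871), with the CCAAT boxes in capitals.
NEK2: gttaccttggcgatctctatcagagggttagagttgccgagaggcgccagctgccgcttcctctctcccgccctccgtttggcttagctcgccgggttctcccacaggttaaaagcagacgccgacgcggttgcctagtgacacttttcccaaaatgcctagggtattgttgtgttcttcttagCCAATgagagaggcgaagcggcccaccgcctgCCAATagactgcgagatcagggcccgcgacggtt
The CCAAT box is the binding motif of the factor NF-Y and is common in promoters of mitotic genes. The boxes of NEK2 start 66 and 34 bases before the start of the gene, which is 32 bases apart, both on the gene's own strand. At least 2 CCAAT boxes on the gene's strand were found in 4.0% of 35116 human promoter windows of 300 bases (250 before to 50 after the start), and at least 2 on either strand in 10.8%. The letters TTTGAA and TTCGAA, forms of the cell cycle genes homology region at which the DREAM complex binds, and the E2F-type letters TTTGGCGC and TTTCCCGC were searched on both strands of the same window and did not occur, against 15.2%, 1.45%, 0.652% and 1.63% of all windows. Among the other members, windows were listed for 7 (none for NEK7). NEK6 held 2 CCAAT boxes, on opposite strands, in 1 of its 5 windows, and NEK11 held 1 in 1 of its 2. NEK1, NEK3, NEK4, NEK8 and NEK9 held none of the 5 motifs. Outside the rule, NEK10 held 3 CCAAT boxes in each of its windows, and NEK5 held none. To hold 2 or more boxes was thus not particular to NEK2 in the family. A match of letters is a description of the sequence and not a bound site. Only these exact letters were searched, so their absence does not show that other forms of the sites are absent.

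NEK9, NEK6 and NEK7, which act in 1 chain at the mitotic spindle, had the highest CPM of the members, which is not corrected for transcript length, and their log2 fold changes of between 0.23 and 0.38 did not pass the test. NEK9 (chromosome 14, 75079353 to 75127202) lay at 84.3 and 121.9 CPM in DMSO, at 127.3 and 150.0 CPM at 0.2 μM and at 124.4 CPM at 0.34 μM. The groups did not overlap, but the highest DMSO library came close to the lowest doxorubicin library. By edgeR its log2 fold change amounted to 0.38 ± 0.20 (SE, 95% interval -0.10 to 0.85) at an adjusted p of 0.255. Leaving out DMSO replicate 1 gave 0.13, and leaving out replicate 2 gave 0.65. The counts of NEK9 could include reads of ZC2HC1C, which overlaps it. NEK6 (chromosome 9, 124257606 to 124353307) lay at 95.4 and 119.0 CPM in DMSO, at 130.9 and 145.5 CPM at 0.2 μM and at 130.8 CPM at 0.34 μM. All doxorubicin libraries were higher, by 0.34 ± 0.16 on the log2 scale (SE, 95% interval -0.037 to 0.72), at an edgeR adjusted p of 0.200, and by 0.18 without DMSO replicate 1. NEK7 (chromosome 1, 198156998 to 198322420) lay at 238.3 and 158.4 CPM in DMSO, at 273.1 and 214.7 CPM at 0.2 μM and at 210.2 CPM at 0.34 μM. Here replicate 1 of DMSO lay above 2 of the 3 doxorubicin libraries. NEK7 differed by 0.23 ± 0.23 on the log2 scale (SE, 95% interval -0.31 to 0.77, edgeR adjusted p of 0.538), by 0.55 without DMSO replicate 1, by 0.11 without replicate 1 of 0.2 μM, and by -0.052 without DMSO replicate 2, so that its direction rested on that library. The intervals of all 3 genes reached below 0 and did not exclude rises of between 0.72 and 0.85 on the log2 scale. NEK6 and NEK9 had the most alike profiles of any 2 members, at a distance of 0.18 on the log2 scale (Euclidean, log2 CPM over the 5 libraries, each gene centred on its mean).

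NEK1, NEK4 and NEK8, which are linked to the cilium, did not move as a group. NEK1 (chromosome 4, 169392809 to 169612583), mutated in short-rib skeletal ciliopathies, lay at 46.8 and 42.0 CPM in DMSO, at 33.3 and 31.6 CPM at 0.2 μM and at 30.2 CPM at 0.34 μM. Its libraries were tightly grouped within each treatment, and the difference on the log2 scale was -0.49 ± 0.15 (SE, 95% interval -0.84 to -0.13, edgeR adjusted p of 0.0744). NEK4 (chromosome 3, 52708444 to 52770940) lay at 21.7 and 27.7 CPM in DMSO, at 16.8 and 19.0 CPM at 0.2 μM and at 16.6 CPM at 0.34 μM. The difference was -0.50 ± 0.18 on the log2 scale (SE, 95% interval -0.94 to -0.065, edgeR adjusted p of 0.118), and -0.33 without DMSO replicate 2. Its span overlaps the coding gene SPCS1, whose reads could be among its counts. RefSeq also lists 3 pseudogenes of NEK4, none of which has a row in the count table. NEK8 (chromosome 17, 28728788 to 28743455), mutated in nephronophthisis, went the other way, with 3.20 and 3.37 CPM in DMSO, 4.68 and 10.1 CPM at 0.2 μM and 6.17 CPM at 0.34 μM. The DMSO libraries were alike, whereas replicate 2 of 0.2 μM was 2.15 times as high as replicate 1 of the same dose. NEK8 differed by 1.08 ± 0.37 on the log2 scale (SE, 95% interval 0.20 to 1.97, edgeR adjusted p of 0.103). Leaving out single libraries gave values between 0.73 and 1.30.

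NEK3 and NEK11 were among the members of low CPM. NEK3 (chromosome 13, 52132647 to 52159860) had 156 and 126 counts in DMSO, 67 and 34 counts at 0.2 μM and 72 counts at 0.34 μM. In CPM these were 5.95 and 4.94 in DMSO, 2.59 and 1.41 at 0.2 μM and 1.98 at 0.34 μM, so that all doxorubicin libraries lay well below both DMSO libraries. The mean went from 5.44 ± 0.718 CPM (SD, n = 2) to 2.00 ± 0.589 CPM (SD, n = 3), a log2 difference of -1.44 ± 0.33 (SE, 95% interval -2.23 to -0.66). NEK3 came closest of the paralogs to the threshold, with an edgeR adjusted p of 0.0339, and it was the paralog that passed in DESeq2 (adjusted p = 0.00244), where 14.6% of all genes did. Over all alternatives with these tools and limma voom its adjusted p lay between 0.00244 and 0.264. Its span overlaps the non-coding genes LOC101929657 and LOC124903176. NEK11 (chromosome 3, 131026877 to 131350465), which is phosphorylated by the checkpoint kinase CHEK1, lay at 8.13 and 7.76 CPM in DMSO, at 7.46 and 7.77 CPM at 0.2 μM and at 5.92 CPM at 0.34 μM. Its groups overlapped, and the log2 difference was -0.17 ± 0.23 (SE, 95% interval -0.71 to 0.37, edgeR adjusted p of 0.655), or -0.055 without the 0.34 μM library. NEK10, outside the rule, differed by 0.39 on the log2 scale (edgeR adjusted p of 0.408). No run of 50 bases was shared between the GENCODE transcripts of any 2 of the 11 family members.

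**Figure D2:**
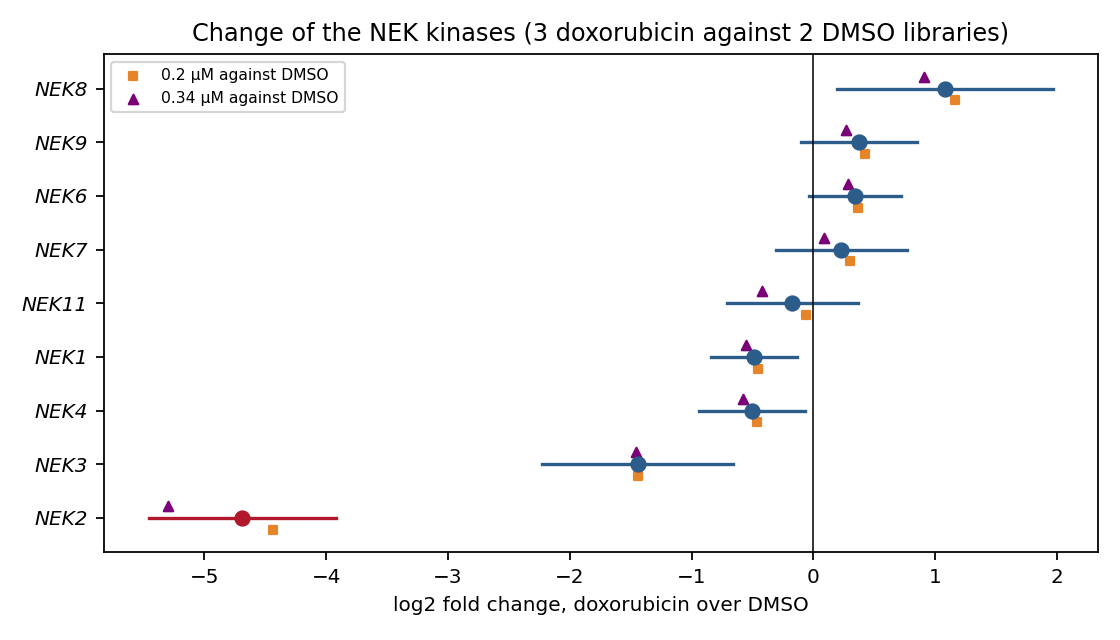
Log2 fold change of each member (doxorubicin over DMSO). Circles are the fit of 3 doxorubicin against 2 DMSO libraries with 95% intervals from edgeR, squares are the 0.2 μM libraries against DMSO, and triangles the 0.34 μM library against DMSO, so that all 3 values of a gene share the DMSO libraries. NEK2, chosen for its fall, lies at -4.69, and its interval is a description and not a test. The paralogs lie between -1.44 and 1.08.

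The order of the levels within the family was altered mainly through NEK2. Compared per kilobase of transcript (CPM divided by the length of the GENCODE canonical transcript), NEK7 led in DMSO with 48.2 ± 13.7 (SD, n = 2), followed by NEK6 with 30.9 ± 4.82 and NEK2 with 27.5 ± 1.40. The order was the same in both DMSO libraries, with NEK7 at 57.9 and 38.5, NEK6 at 27.5 and 34.3 and NEK2 at 26.5 and 28.5. NEK6 and NEK7 were close in replicate 2, as were NEK6 and NEK2 in replicate 1. These differences were not tested. NEK9 (12.5 ± 3.22), NEK1 (7.29 ± 0.559), NEK4 (4.08 ± 0.708), NEK11 (2.71 ± 0.0894), NEK3 (2.56 ± 0.338) and NEK8 (0.920 ± 0.0325) followed, with NEK11 and NEK3 overlapping. After doxorubicin NEK7 (56.5 ± 8.54, SD, n = 3), NEK6 (39.1 ± 2.44) and NEK9 (16.2 ± 1.69) led, and NEK2 had moved from place 3 to place 8 of 9, at 1.08 ± 0.427 CPM per kilobase. Its range then overlapped with those of NEK3 (0.938 ± 0.277) and NEK8 (1.95 ± 0.778), though NEK8 was higher than NEK2 in each doxorubicin library. NEK8 itself moved from place 9 to place 7. With the length of all annotated exons in place of the canonical transcript, NEK2 held the same places, 3 and 8. By that length NEK8 moved from place 9 to place 6. In reads rather than per length, NEK2 made up 10.1% and 11.1% of the summed CPM of the 9 members in DMSO and 0.356%, 0.563% and 0.282% in doxorubicin. The sum of the 8 paralogs lay at 503.7 and 485.2 CPM in DMSO and at 596.1, 580.0 and 526.2 CPM in doxorubicin, where NEK6, NEK7 and NEK9 held between 87.5% and 88.8% of the sum of all 9.

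The rule did not compare the doses, though its comparison with DMSO used these same doxorubicin libraries. A fit with each condition as its own group set the 0.34 μM library against both 0.2 μM libraries. Of the 9 members, 0 passed the threshold in edgeR, DESeq2 or limma voom, and 0 had an unadjusted p under 0.05 in edgeR or DESeq2, against 0% of all genes past the threshold and 0.155% at an unadjusted p under 0.05 in edgeR. The 0.34 μM library has no replicate, and its spread was taken from the other libraries. NEK2 was lower at 0.34 μM by a log2 difference of -0.86 (SE 0.38, 95% interval -1.77 to 0.050, edgeR unadjusted p of 0.0605 and adjusted p of 1.00). This interval includes 0 and does not exclude a further fall at the higher dose. For the paralogs the log2 differences lay between -0.36 (NEK11) and -0.015 (NEK3), and the interval of NEK11 was -1.28 to 0.55. Against DMSO, the values at 0.2 and 0.34 μM, which share the DMSO libraries, were -4.44 and -5.30 for NEK2, -1.44 and -1.45 for NEK3, and 1.16 and 0.91 for NEK8.

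The genes with profiles most like that of NEK2 were searched by the same distance over the 5 libraries. The nearest were ASPM (distance 0.33), a spindle pole protein, HJURP (0.38), the chaperone of the centromeric histone, BUB1 (0.38), a kinase of the spindle checkpoint, MKI67 (0.39), the proliferation marker, and DLGAP5 (0.45), a spindle protein. In all, 24 genes lay nearer to NEK2 than 1, against a median distance of 5.26 over all genes tested. ASPM lay at 310.2 and 309.8 CPM in DMSO and at 14.8, 20.7 and 9.81 CPM in doxorubicin. As in NEK2, replicate 2 of 0.2 μM was the highest and the 0.34 μM library the lowest of the doxorubicin libraries, and the same order held in HJURP, BUB1, MKI67 and DLGAP5. These genes were chosen by their likeness, so this is a description.

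**Figure D3:**
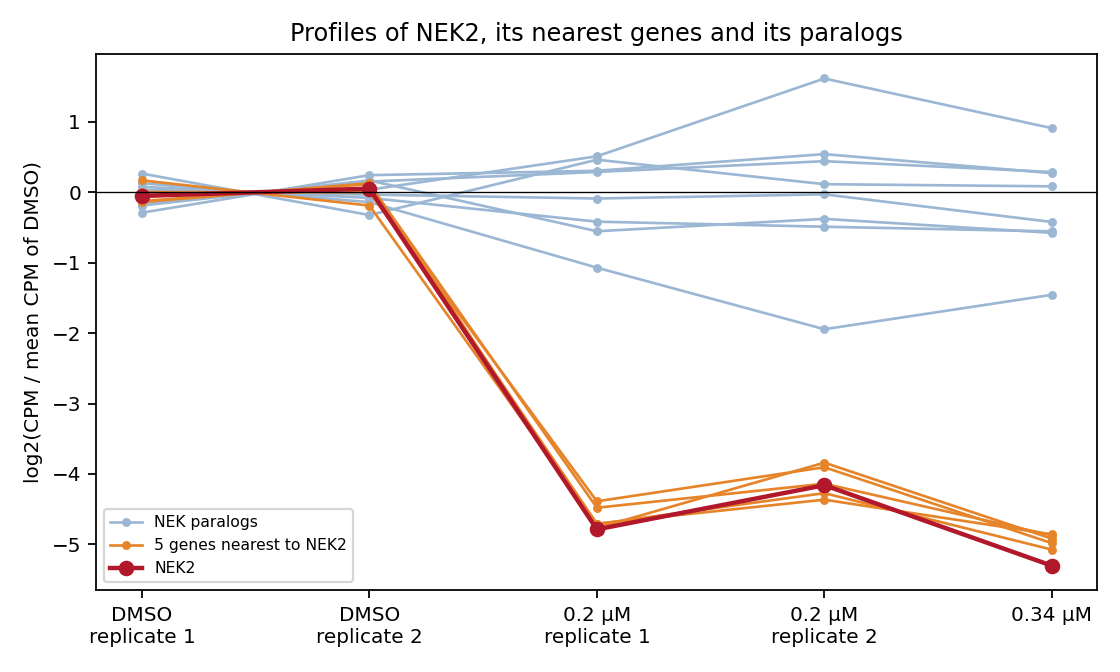
Log2 ratio of the CPM in each library to the mean CPM of the DMSO libraries for NEK2 (red), the 5 genes nearest to it (orange) and the 8 paralogs (blue). The orange lines follow NEK2 in all libraries, and none of the blue lines comes near them in the doxorubicin libraries.

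Most kinases of mitosis outside the NEK family also fell. In a list of 18, 17 were tested, of which 13 fell and 1 rose past the threshold in edgeR's quasi-likelihood test, with a median log2 fold change of -2.74. Among all genes tested, 2.73% fell and 1.29% rose past it. PLK1, which activates NEK9, lay at 207.8 and 189.8 CPM in DMSO and at 4.60, 4.45 and 3.83 CPM in doxorubicin, or -5.53 ± 0.16 on the log2 scale (SE, edgeR adjusted p of 0.000136). It was thus the only listed kinase to fall further than NEK2. BUB1 (-4.47), the checkpoint kinase BUB1B (-3.98), the centrosomal kinase AURKA (-3.66) and the mitotic driver CDK1 (-2.44) also fell. The kinase that rose was PLK3, named after its values were seen, which is induced by stress and had a log2 fold change of 2.16. Without replicate 1 or replicate 2 of 0.2 μM, 9 of the list passed the threshold. In the same fits the 571 calls over all genes became 207 and 183. Fewer of the list also passed when a DMSO library was left out.

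The partners of the NEK kinases were followed in 5 lists of 65 genes, of which 62 were tested. Of these, 12 passed the threshold in edgeR's quasi-likelihood test, all of them lower, where 4.02% of all genes passed and 2.73% passed as lower. The median log2 fold change was -0.40, against 0.013 over all genes. The list of NEK2 partners (17 genes, median -0.61) holds proteins of the centrosome and its linker, Hippo kinases, phosphatase subunits and NDC80. By direction alone, 11 were lower and 6 higher. Past the threshold, 4 fell and 0 rose. They were NDC80 (-4.15), a kinetochore protein that NEK2 phosphorylates, CEP85 (-1.53), an inhibitor of NEK2, CNTLN (-1.26), a linker protein, and CDK5RAP2 (-1.11), a centrosomal scaffold. The linker proteins CEP250 and CROCC, direct substrates of NEK2, had log2 fold changes of 0.15 and 0.86 (edgeR adjusted p of 0.716 and 0.0818). CROCC lay at 13.6 and 12.7 CPM in DMSO and at 26.9, 16.3 and 28.4 CPM in doxorubicin, above DMSO in every library. The phosphatase PPP1CC, which opposes NEK2, differed by -0.61 on the log2 scale (edgeR adjusted p of 0.0904).

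In the module of NEK9, NEK6 and NEK7 (13 genes, median -0.71), 9 were lower and 4 higher by direction alone. Past the threshold, 4 fell and 0 rose, where 2.73% of all genes fell and 1.29% rose. KIF11, the spindle motor that NEK6 phosphorylates, lay at 241.7 and 281.3 CPM in DMSO and at 18.6, 23.3 and 13.2 CPM in doxorubicin, or -3.83 ± 0.25 on the log2 scale (SE, edgeR adjusted p of 0.000747). TPX2 (-3.59), a spindle assembly factor, TUBG1 (-1.11), the gamma-tubulin that nucleates microtubules, and PLK1 were the others that fell past the threshold. The adaptor DYNLL1, which binds NEK9, had a log2 fold change of -0.13, NEDD1 one of -0.61 and EML4 one of -0.71, with edgeR adjusted p-values of 0.615, 0.0882 and 0.0292.

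Among the partners at the cilium (16 genes, 15 tested, median -0.076), 0 passed the threshold in edgeR, with 5 at an unadjusted p under 0.05, against 30.8% of all genes. DESeq2 called 2, against 14.6% of all genes, namely PKD2 (0.57 in edgeR) and RPGRIP1L (-0.99), named after their values were seen, and limma voom called 0. Both counts were thus near the background. ANKS6, which activates NEK8, had a log2 fold change of -0.38 and the ciliary motor KIF3A one of -0.045, with edgeR adjusted p-values of 0.180 and 0.888. Among the partners in DNA damage (13 genes, median -0.77), 12 were lower and 1 higher by direction alone. Past the threshold, 4 fell and 0 rose, where 2.73% of all genes fell and 1.29% rose. Among these 4 were RAD54L (-2.52), which NEK1 phosphorylates, and the checkpoint kinases CHEK1 (-1.50) and CHEK2 (-1.41). ATR, the kinase whose complex NEK1 stabilises, had a log2 fold change of -0.052 and PRKDC one of -0.81, with edgeR adjusted p-values of 0.906 and 0.0472. In the inflammasome list of NEK7 (6 genes, 4 tested, median 0.88), 0 passed in edgeR, with 3 at an unadjusted p under 0.05, against 30.8% of all genes. DESeq2 called 1, against 14.6% of all genes (CASP1, 1.40 in edgeR, named after its values were seen), and limma voom 0. NLRP3 was close to 0, between 0.138 and 2.35 CPM, and PYCARD, the adaptor, had 3 counts in 1 library and 0 in the others. The 12 calls in the 5 lists became 5 without any 1 of the doxorubicin libraries. In the same fits the 571 calls over all genes became between 178 and 207. Fewer also passed when a DMSO library was left out, which leaves only 1 in that group.

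**Figure D4:**
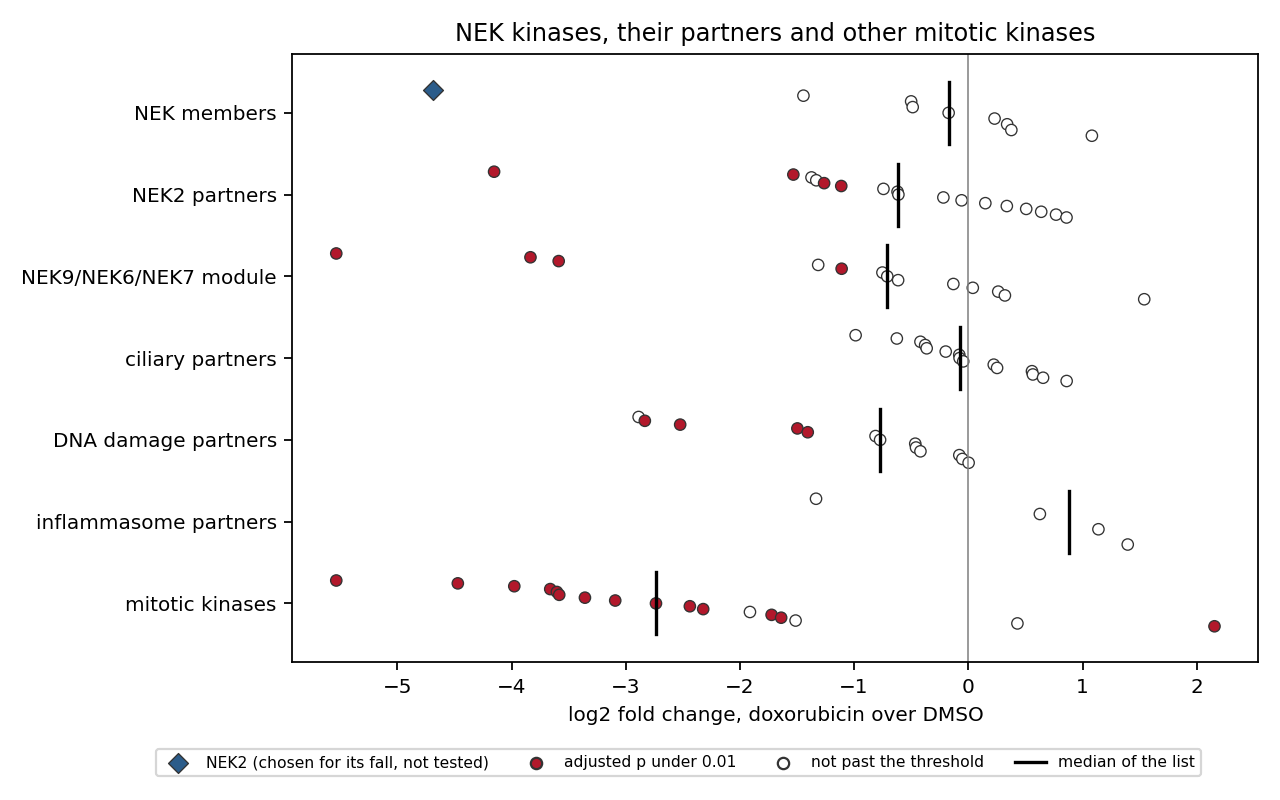
Log2 fold change (doxorubicin over DMSO) of the tested genes of each list, 1 point a gene, with filled circles past an adjusted p of 0.01 in edgeR and vertical lines at the medians. The diamond is NEK2, whose change is a description. The mitotic kinases lie furthest to the left, with a median of -2.74, and the ciliary partners lie around 0.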

How the data were processed

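RNA-seq of poly-A RNA was analysed in 5 libraries of RPE1 cells. Raw gene-level counts were deposited, made by the authors with STAR on hg38 and Rsubread (featureCounts) with the iGenomes annotation. The library kit keeps the strand, but its use in counting, the handling of reads with several mapping places and all tool versions were not given in the sources used here. A second deposited table holds the authors' own DESeq2 comparison and was not used.

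Counts were tested in R 4.3.3 with edgeR 4.0.16 (quasi-likelihood, TMM, filterByExpr at its defaults of 10 counts and a total of 15, leaving 14187 of 26485 genes), with DESeq2 1.42.0 and limma 3.58.1 as alternatives. As in the study, 3 doxorubicin libraries of both doses formed 1 group against 2 DMSO libraries, at a Benjamini-Hochberg adjusted p of 0.01 over all genes tested. The fit of 3 conditions, used for the doses, held the same genes. Standard errors (SE) were derived from the F statistic and intervals use the t distribution of the fit. Log2 CPM used a prior count of 2. Library totals were between 23773061 and 36725345 counts. Libraries of 1 condition were checked for being copies (chi-square per degree of freedom 117.2 and 75.3) and were counted as separate. The labels do not say whether they came from separate cultures, whereas the study's methods call them biological replicates. The pipeline was tested on simulated data.

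The members and the gene lists, written from general knowledge, were chosen with earlier results of these data known. The named genes are the members, every list gene past the threshold where these are 6 or fewer and otherwise the 4 with the smallest adjusted p, fixed examples, and the 5 genes nearest to NEK2. Symbols were matched to RefSeq on GRCh38, and 2 list genes were found under an older symbol. Transcript lengths are from GENCODE v44 lifted to GRCh37 (lengths only), and promoters are from RefSeq, GRCh38.p14. Some list genes that the rule would name are not reported here.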

Additional observations from a re-analysis of the deposited data

How the results depend on the processing

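Over the alternatives, the number of NEK paralogs past the threshold stayed at 0 with limma voom, RLE or upper-quartile scaling, or no low-count filter. It also stayed at 0 for the 0.2 μM libraries against DMSO in the fit of 3 conditions, and with any doxorubicin library left out. It became 1 (NEK3) with DESeq2, with an adjusted p of 0.05 and with the replicate block. For all genes the count of 571 became 2073 with DESeq2, 1020 without the filter, 1927 at an adjusted p of 0.05, 171 with the 0.2 μM libraries alone and between 49 and 215 with a library left out. For the partner lists the count of 12 became 25 with DESeq2, 23 at an adjusted p of 0.05, 4 with the 0.2 μM libraries alone and between 2 and 6 with a library left out, and for the mitotic kinases the count of 14 ranged from 3 to 10 with a library left out. Fewer libraries enter the fits that leave one out, and a lone DMSO library is there assumed to vary like the doxorubicin libraries. For the other alternatives the cause was not tested. The dose comparison gave 0 genes in every alternative run, and could not be fitted without the 0.34 μM library. The direction of each member held in all alternatives except that of NEK7, which ranged from -0.052 (without DMSO replicate 2) to 0.55 with a library left out. Neither of the other scalings turned the direction of a member.

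The labels number only the second libraries of DMSO and of 0.2 μM. Across genes, the difference between replicates 1 and 2 correlated between these groups (r = 0.528, genes not being independent), which is a hint from the data and not from the design. With the replicate number as a block in these 4 libraries, 1249 of all genes and 1 paralog passed the threshold. Without the block the same 4 libraries gave 178 and 0.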
